A study of Mus musculus with 35 samples.

Results

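The genes Tnfaip2, Tnfsf10, Rftn1, Tspan9, Mamstr, Dusp10 and Serpinb1a, higher in mouse skeletal muscle after ActRIIB-Fc, were followed through every class of the study. They were 7 of 19938 genes with a named row, and they were chosen by name because they were higher in treated than in control muscle in these same arrays. Each had exactly 1 row of the deposited values, so no choice between rows was needed.

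RNA of quadriceps, a large thigh muscle, came from 2-month-old female mice and was measured on 35 Affymetrix arrays, 1 per mouse. Control mice, mice given 1 dose of ActRIIB-Fc and mice given 4 doses had 3 arrays each in experiment 1 and 5 each in experiment 2, an independent repeat. Mstn-null mice, which lack myostatin and whose labels name no treatment, had 3 arrays in experiment 1 and 8 in experiment 2. The amount and timing of the doses, the treatment of the control mice, the strain and the null allele are not given in the sources used here.

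ActRIIB-Fc is a soluble form of an activin receptor joined to an antibody tail. It binds myostatin, activins and related ligands in the circulation before they reach the receptor on the muscle fibre. Myostatin normally signals through that receptor to SMAD transcription factors and holds back muscle growth, so a Mstn-null mouse lacks 1 of the ligands that the decoy can bind.

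The 7 genes encode proteins of different kinds. Tnfaip2 was named for its induction by tumour necrosis factor (TNF), and its protein resembles a subunit of the exocyst, the complex that tethers secretory vesicles to the plasma membrane. Tnfsf10 encodes TRAIL, a TNF family ligand that can trigger cell death through its receptors. Rftn1 encodes raftlin, a protein of lipid rafts, and Tspan9 a tetraspanin, a class of membrane organisers. Mamstr encodes MASTR, a coactivator of the muscle transcription factor MEF2. Dusp10 encodes a phosphatase that switches off the stress kinases p38 and JNK. Serpinb1a encodes an inhibitor of the serine proteases of neutrophils.

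The promoters of Tnfaip2, Mamstr, Tspan9 and Rftn1 are printed because every treated array of these 4 genes lay above every control array of its experiment at both doses. The sequences come from RefSeq (mouse assembly GRCm38.p6) and run from 250 bases before the start site to 50 after it. They lie at chr12:111442411-111442710 on the plus strand for Tnfaip2, chr7:45639727-45640026 on the plus strand for Mamstr, chr6:128143529-128143828 on the minus strand for Tspan9 and chr17:50190448-50190747 on the minus strand for Rftn1. Capitals mark matches to the consensus of NF-kB, the transcription factor that TNF activates, on either strand. All are written 5′ to 3′ on the strand of the gene.
Tnfaip2: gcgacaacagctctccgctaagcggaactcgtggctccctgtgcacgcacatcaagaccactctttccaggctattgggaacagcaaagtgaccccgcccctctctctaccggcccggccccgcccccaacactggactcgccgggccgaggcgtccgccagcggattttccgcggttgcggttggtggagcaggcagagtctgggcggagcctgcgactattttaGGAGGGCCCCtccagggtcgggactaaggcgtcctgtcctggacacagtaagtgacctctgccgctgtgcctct
Mamstr: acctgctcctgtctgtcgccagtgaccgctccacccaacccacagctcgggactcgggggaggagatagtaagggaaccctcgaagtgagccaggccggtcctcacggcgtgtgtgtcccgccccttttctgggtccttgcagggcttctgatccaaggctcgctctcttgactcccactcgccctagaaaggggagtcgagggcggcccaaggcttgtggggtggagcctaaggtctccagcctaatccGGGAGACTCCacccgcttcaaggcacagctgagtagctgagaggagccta
Tspan9: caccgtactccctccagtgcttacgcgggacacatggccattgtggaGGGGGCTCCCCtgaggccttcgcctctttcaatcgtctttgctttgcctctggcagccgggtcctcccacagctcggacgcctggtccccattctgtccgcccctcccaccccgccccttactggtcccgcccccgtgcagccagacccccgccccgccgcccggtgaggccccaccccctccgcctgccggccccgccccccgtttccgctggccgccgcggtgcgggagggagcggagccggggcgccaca
Rftn1: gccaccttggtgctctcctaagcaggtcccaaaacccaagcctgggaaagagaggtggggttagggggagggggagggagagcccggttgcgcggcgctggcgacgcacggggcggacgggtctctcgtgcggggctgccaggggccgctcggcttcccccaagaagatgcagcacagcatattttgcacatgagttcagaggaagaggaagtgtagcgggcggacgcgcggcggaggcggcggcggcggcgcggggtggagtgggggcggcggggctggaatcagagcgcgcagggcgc

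An NF-kB match began at position -24 in Tnfaip2 and at position 1, the start site, in Mamstr. In Tspan9, 2 overlapping matches began at -203 and -202, and Rftn1 held none. Of the 6 genes with a promoter in the table, 3 held a match, against 8.19% of 27025 mouse promoters of the same 300 bases. These promoters were rich in G and C, with 64.3% in Tnfaip2, 62.7% in Mamstr and 73.3% in Tspan9 against a median of 52.7% over all promoters. Rftn1, at 70%, and Dusp10, at 61%, were rich in them too without a match, and the part of base composition was not tested. For Tspan9, which has 4 listed starts, the most upstream was used.

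Other short motifs were either common in promoters at large or not found. The E-box CANNTG, the site of myogenic factors such as MyoD, was in 4 of the 6 promoters against 72.1% of all. The SMAD motif CAGAC was in 4 of 6 against 49.7%. The FoxO motif TGTTTAC (3.52% of all promoters), the MEF2 consensus (3.29%) and the CArG box of serum response factor (1.59%) had no match in these windows. A match describes the letters only.

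The deposited values are log2 expression values, on which a difference of 1 is a doubling. Array medians ran from 4.73 to 4.86 for experiment 1 and from 6.34 to 6.54 for experiment 2, and levels are therefore given within each experiment. As a check of the tissue, 13 markers of skeletal muscle fibres all lay at or above the 99.4 percentile of genes in the controls of experiment 2. As a check of the genotype, Mstn was lower in every Mstn-null array than in every control array of its experiment, with a log2 change of -2.30 ± 0.23 (SE, adjusted p = 3.54e-08). These are whole-muscle samples, in which fewer cells of a type and less RNA per cell cannot be told apart.

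**Figure D1:**
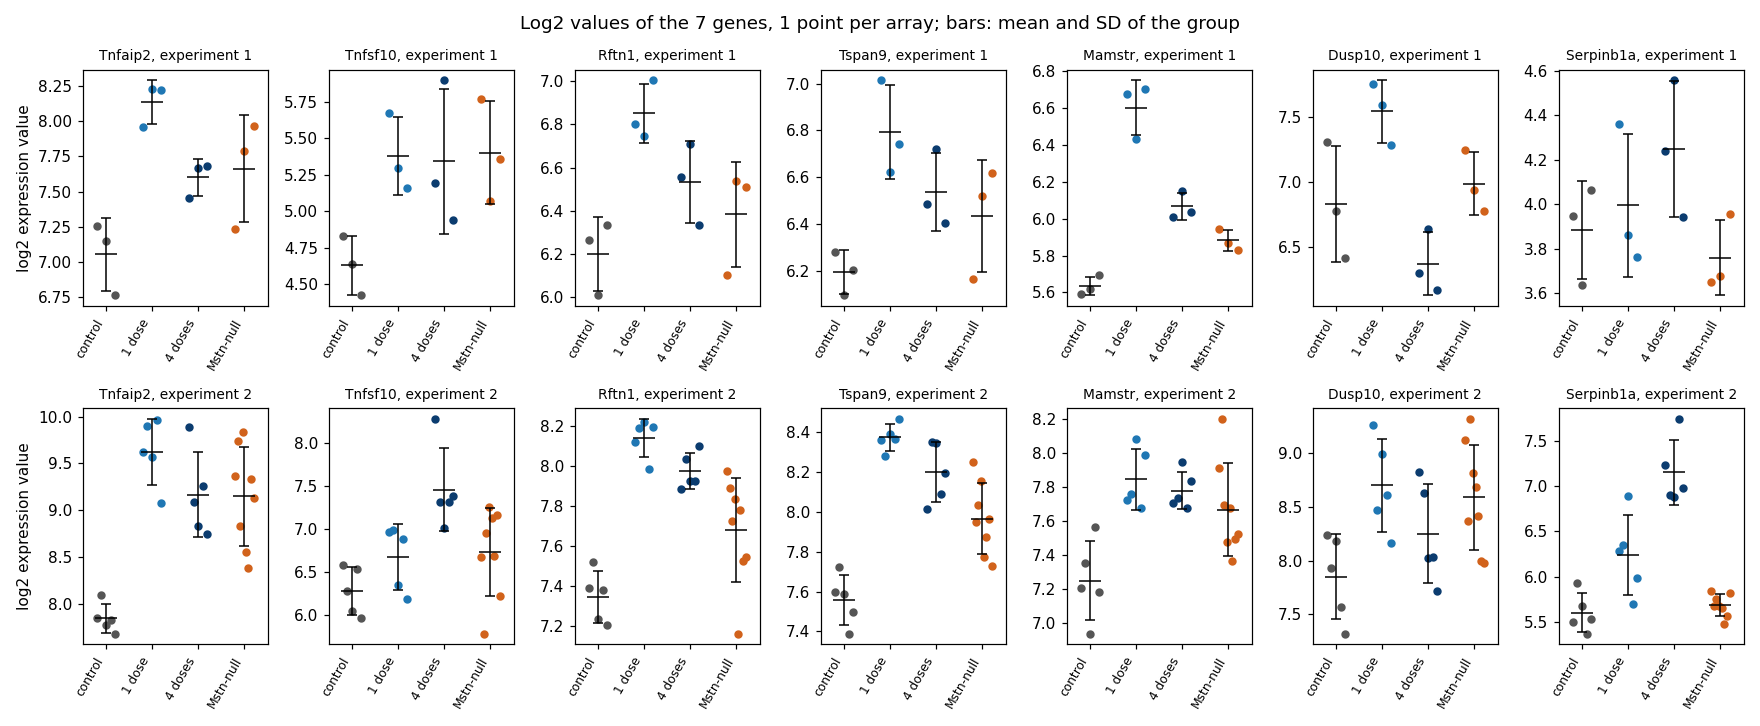
Log2 expression value (vertical axis) of each gene by class (horizontal axis), with experiment 1 above and experiment 2 below; each point is 1 array, and bars show the group mean and SD. Tnfaip2 in experiment 2 lies between 7.68 and 8.09 in controls and between 9.07 and 9.96 after 1 dose.

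Changes against control after each dose are given first, as log2 differences with their standard errors from 1 fit of all arrays with experiment as a term. These are the values by which the genes were chosen, so they carry no test. After 1 dose all 7 genes were above control, with a median change of 0.74 against 0.02 over all genes, of which 58.1% were above 0. After 4 doses all 7 were again above 0, with a median of 0.53 against 0.02 over all genes and 56.8% above 0. At 4 doses Dusp10 was close to 0, and its sign was negative in experiment 1 and with array weights.

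Tnfaip2 stood highest of all 19938 genes after 1 dose. In experiment 1 its control values were 7.25, 7.15 and 6.76, those after 1 dose 7.96, 8.23 and 8.23, and those after 4 doses 7.45, 7.67 and 7.68. In experiment 2 they were 7.85, 8.09, 7.77, 7.83 and 7.68 in controls, 9.63, 9.90, 9.57, 9.96 and 9.07 after 1 dose, and 9.89, 9.09, 8.84, 9.26 and 8.74 after 4 doses. No treated array overlapped the controls, and in experiment 1 every 4-dose array lay below every 1-dose array. The log2 change was 1.52 ± 0.18 after 1 dose, or 2.87-fold, and 1.03 ± 0.18 after 4 doses, or 2.04-fold.

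Tnfaip2 was also high without myostatin. Its values in Mstn-null muscle were 7.23, 7.79 and 7.97 in experiment 1, where 1 array lay within the range of the controls. In experiment 2 they ran from 8.39 to 9.84 with a median of 9.23, all above the highest control. The order of the class means was control, 4 doses, Mstn-null and 1 dose in experiment 1, and control, Mstn-null, 4 doses and 1 dose in experiment 2. The means of the middle pair, 7.60 and 7.66 in experiment 1 and 9.15 and 9.16 in experiment 2, differed by less than the SD of either group.

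Tnfsf10 was higher after 4 doses than after 1 dose in experiment 2 but not in experiment 1. Its control values in experiment 1 were 4.83, 4.64 and 4.43, against 5.67, 5.30 and 5.16 after 1 dose and 5.19, 5.90 and 4.94 after 4 doses. In experiment 2 they were 6.58, 6.28, 6.05, 6.54 and 5.97 in controls, 6.97, 6.99, 6.35, 6.89 and 6.19 after 1 dose, and 8.28, 7.31, 7.01, 7.31 and 7.38 after 4 doses. In experiment 2 the 1-dose arrays overlapped the controls, and every 4-dose array was above every 1-dose array. The array at 8.28 stood apart from the other 4 of its group. The change was 1.44-fold after 1 dose (0.53 ± 0.20 on the log2 scale) and 2.00-fold after 4 doses (SE 0.20 on the log2 scale).

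In Mstn-null muscle Tnfsf10 was 5.77, 5.07 and 5.36 in experiment 1, all above the controls, and ran from 5.79 to 7.25 with a median of 6.82 in experiment 2, where it overlapped them. Class means in experiment 1 were 5.38 after 1 dose, 5.34 after 4 doses and 5.40 in Mstn-null muscle, apart by less than any group's SD. In experiment 2 the 4-dose mean of 7.46 stood above 6.73 in Mstn-null and 6.68 after 1 dose, which did not differ beyond their SDs of 0.51 and 0.38.

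Few other genes of TNF signalling passed the test after treatment. Of 28 measured TNF and NF-kB response genes, 0 passed adjusted p under 0.05 in limma after 1 dose, where 1.11% of all genes passed, and 6 had an unadjusted p under 0.05, 4 higher and 2 lower. After 4 doses, where 3.14% of all genes passed, 2 rose: Vcam1, an adhesion molecule (log2 change 0.34 ± 0.08 SE, adjusted p = 0.00904), and Birc3, an inhibitor of apoptosis (0.33 ± 0.08 SE, adjusted p = 0.0140). The call of Vcam1, also a marker of muscle satellite cells, was lost with centred arrays, and the count was 4 without Mstn-null array 2 of experiment 2. The median change of the list was 0.08 after 1 dose and 0.10 after 4 doses.

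The same shares over all genes, 1.11% after 1 dose and 3.14% after 4 doses, apply to the next counts. Of 41 other TNF superfamily ligands and receptors, 0 passed in limma after 1 dose (10 at unadjusted p under 0.05, 8 of them higher). After 4 doses 1 fell, the death receptor gene Fas (-0.52 ± 0.12 SE, adjusted p = 0.0100). Tnfrsf10b, the TRAIL receptor of the mouse, differed by 0.19 ± 0.08 (SE, adjusted p = 0.358) after 1 dose and 0.17 ± 0.08 (SE, adjusted p = 0.334) after 4 doses. Of 16 genes of death receptor signalling, Mcl1, which protects cells from apoptosis, fell after 1 dose (-0.36, adjusted p = 0.0321). Apaf1, which starts caspase activation, rose after 4 doses (0.25, adjusted p = 0.0370), but not with either other scaling. Each of these last calls was lost without any 1 of several arrays. For Mcl1 these were 1-dose arrays 1 and 3 of experiment 1 and, of experiment 2, controls 2 to 5 and 1-dose arrays 1, 2 and 4. For Apaf1 they were control 1 and 4-dose array 2 of experiment 1 and, of experiment 2, controls 1, 2, 3 and 5 and 4-dose arrays 1, 2, 4 and 5.

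Of 16 exocyst and Ral genes, which share a structural family or a partner with Tnfaip2, 0 passed in limma after 1 dose (1 at unadjusted p under 0.05). Of all genes 1.11% passed at that dose. After 4 doses, where 3.14% passed, 1 rose, the exocyst subunit Exoc7 (0.65 ± 0.09 SE, adjusted p = 5.74e-06). Exoc7 was also higher after 4 doses than after 1 dose, by 0.41 ± 0.09 (SE, adjusted p = 0.0196), whereas the value of Tnfaip2 in that comparison was -0.49.

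Rftn1 and Tspan9 followed each other closely. Rftn1 in experiment 1 was 6.26, 6.01 and 6.33 in controls, 6.80, 6.75 and 7.01 after 1 dose, 6.55, 6.71 and 6.33 after 4 doses, and 6.10, 6.54 and 6.51 in Mstn-null muscle. In experiment 2 it was 7.39, 7.52, 7.23, 7.38 and 7.20 in controls, 8.12, 8.19, 8.22, 7.98 and 8.20 after 1 dose, and 7.89, 8.03, 7.92, 7.93 and 8.10 after 4 doses. Mstn-null arrays of experiment 2 ran from 7.16 to 7.98 with a median of 7.75. Treated arrays were clear of the controls in both experiments, although the lowest 4-dose array and the highest control of experiment 1 both stood at 6.33. Mstn-null arrays overlapped the controls in both.

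Tspan9 in experiment 1 was 6.28, 6.09 and 6.20 in controls, 7.01, 6.62 and 6.74 after 1 dose, 6.49, 6.72 and 6.40 after 4 doses, and 6.16, 6.52 and 6.62 in Mstn-null muscle. In experiment 2 it was 7.60, 7.72, 7.59, 7.39 and 7.50 in controls, 8.36, 8.28, 8.39, 8.37 and 8.47 after 1 dose, and 8.02, 8.35, 8.35, 8.09 and 8.20 after 4 doses. Mstn-null arrays of experiment 2 ran from 7.73 to 8.25 with a median of 7.96, all above the controls. The order of the means was control, Mstn-null, 4 doses and 1 dose for Rftn1 and for Tspan9 in both experiments. Mstn-null and 4-dose means of experiment 1 differed by less than the larger SD, at 6.38 and 6.53 for Rftn1 and 6.43 and 6.54 for Tspan9.

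The log2 changes of both genes were alike at each dose. Rftn1 was 0.74 ± 0.09 above control after 1 dose and 0.52 ± 0.09 after 4 doses. Tspan9 was 0.73 ± 0.08 above control after 1 dose and 0.53 ± 0.08 after 4 doses.

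Of the related membrane genes, some tetraspanins passed after 4 doses. Rftn2, the paralogue of Rftn1, differed from control by -0.04 ± 0.08 (SE, adjusted p = 0.876) after 1 dose and -0.02 ± 0.08 (SE, adjusted p = 0.947) after 4 doses. Of 13 lipid raft and caveolae genes, 0 passed in limma after 1 dose, where 1.11% of all genes passed, and 0 at unadjusted p under 0.05. After 4 doses, where 3.14% of all genes passed, 1 fell, the caveolar protein gene Pacsin3 (-0.41, adjusted p = 0.0287). Its call was lost without control 1 or 4-dose array 2 or 3 of experiment 1 or control 2 of experiment 2, and 2 genes passed without control 3 or Mstn-null array 1 of experiment 1.

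Of 29 other tetraspanins, 0 passed in limma after 1 dose (5 at unadjusted p under 0.05; 1 passed without control 1 of experiment 1 and 2 without 1-dose array 5 of experiment 2), and 5 rose after 4 doses, against 3.14% of all genes called. Cd82 (0.57 ± 0.12 SE, adjusted p = 0.00231) and the leukocyte tetraspanin Cd53 (0.67 ± 0.16 SE, adjusted p = 0.0110) had the smallest p. The count of 5 became 2 or 3 without any 1 of 10 arrays: controls 2 of experiment 1 and 1, 3, 4 and 5 of experiment 2, and 4-dose arrays 1 and 2 of experiment 1 and 2, 4 and 5 of experiment 2. With arrays centred on their medians it was 2. Markers of macrophages, which carry Cd53, rose in the same comparison, as given with Serpinb1a, and their part was not tested.

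Mamstr was highest after 1 dose. In experiment 1 it was 5.59, 5.62 and 5.69 in controls, 6.68, 6.43 and 6.70 after 1 dose, 6.01, 6.15 and 6.04 after 4 doses, and 5.94, 5.87 and 5.83 in Mstn-null muscle. The 4 classes of experiment 1 did not overlap at all, in the order control, Mstn-null, 4 doses, 1 dose. In experiment 2 it was 7.21, 7.36, 6.94, 7.57 and 7.18 in controls, 7.72, 7.76, 8.08, 7.68 and 7.99 after 1 dose, and 7.70, 7.74, 7.95, 7.68 and 7.83 after 4 doses. Mstn-null arrays of experiment 2 ran from 7.36 to 8.20 with a median of 7.60. There the 3 other classes overlapped each other, with means of 7.85, 7.78 and 7.67, and both treated classes stayed clear of the controls. The log2 change was 0.74 ± 0.10 after 1 dose and 0.49 ± 0.10 after 4 doses.

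Among 20 regulators of the MEF2 and myocardin families, 3 rose after 1 dose, where 1.11% of all genes passed. They were Myog, the myogenic factor myogenin (0.59 ± 0.13 SE, adjusted p = 0.0136), the kinase gene Sik1 (0.47 ± 0.11 SE, adjusted p = 0.0238) and Mrtfa, which like Mamstr encodes a coactivator with a SAP domain (0.49 ± 0.12 SE, adjusted p = 0.0305). After 4 doses, where 3.14% passed, 1 rose, the cofactor gene Vgll3 (0.26 ± 0.07 SE, adjusted p = 0.0367), and Mrtfa was at 0.23 ± 0.12 (SE, adjusted p = 0.390). The count after 1 dose was 1 without controls 3, 4 or 5 or 1-dose array 1 of experiment 2, and 1 with centred arrays. After 4 doses it was 2 without control 2 of experiment 1. The call of Vgll3 was lost without control 1, 2, 3 or 5 or 4-dose array 2, 3 or 5 of experiment 2, or 4-dose array 2 of experiment 1, and with either other scaling. Myocd differed from control by 0.01 ± 0.08 (SE, adjusted p = 0.967) after 1 dose.

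Dusp10 was high after 1 dose and not after 4. In experiment 1 it was 7.30, 6.77 and 6.41 in controls, 7.75, 7.59 and 7.28 after 1 dose, and 6.31, 6.64 and 6.17 after 4 doses. Mstn-null values of experiment 1 were 7.25, 6.94 and 6.77. Every 4-dose array of experiment 1 was below every 1-dose and every Mstn-null array, and 2 of 3 were below every control. In experiment 2 it was 8.23, 7.94, 8.18, 7.57 and 7.32 in controls, 9.26, 8.47, 8.98, 8.61 and 8.16 after 1 dose, and 8.82, 8.63, 8.03, 8.04 and 7.72 after 4 doses. Mstn-null arrays of experiment 2 ran from 7.98 to 9.32 with a median of 8.55, and all 3 classes overlapped the controls. Neighbouring class means of experiment 2, in the order control, 4 doses, Mstn-null and 1 dose, differed by less than the larger SD. The log2 change was 0.80 ± 0.20 after 1 dose and 0.08 ± 0.20 after 4 doses, the second being -0.46 in experiment 1 and 0.40 in experiment 2.

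Other dual specificity phosphatases moved in both directions. The shares of all genes that passed, 1.11% after 1 dose and 3.14% after 4 doses, apply to each count of this paragraph. Of 24, 1 rose and 2 fell after 1 dose: Dusp8, which also acts on p38 and JNK (0.49 ± 0.11 SE, adjusted p = 0.0136), Dusp18 (-0.77 ± 0.13 SE, adjusted p = 0.000609) and Dusp7 (-0.70 ± 0.12 SE, adjusted p = 0.000868). After 4 doses 1 rose, Dusp3 (0.34 ± 0.07 SE, adjusted p = 0.00293), and 2 fell, Dusp18 (-0.997 ± 0.13 SE, adjusted p = 4.96e-06) and Dusp26 (-0.50 ± 0.10 SE, adjusted p = 0.00223). Both counts of 3 held with each array left out in turn. Of 20 p38 and JNK pathway genes, the stress sensor gene Gadd45b fell after 1 dose (-0.71, adjusted p = 0.0268). Its call was lost without 1-dose array 2 of experiment 1 or without controls 2 to 5 or 1-dose array 5 of experiment 2. After 4 doses Mapk11, a p38 isoform gene (0.30, adjusted p = 0.0229), and Map2k6, which encodes a kinase of p38 (0.26, adjusted p = 0.0370), rose. That count of 2 became 0 without control 3 or 4-dose array 3 of experiment 2, and 1 without controls 1 or 3 or 4-dose array 2 of experiment 1 or controls 4 or 5 or 4-dose array 4 of experiment 2. With either other scaling 1 of them stayed called.

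Serpinb1a was raised most by 4 doses and mainly in experiment 2. In experiment 1 it was 3.95, 3.64 and 4.06 in controls, 4.36, 3.86 and 3.76 after 1 dose, 4.24, 4.56 and 3.94 after 4 doses, and 3.65, 3.68 and 3.96 in Mstn-null muscle. All 4 classes overlapped there, with means at the 27.7 to 37.8 percentile of genes. In experiment 2 it was 5.50, 5.93, 5.68, 5.37 and 5.53 in controls, 6.29, 6.35, 6.88, 5.70 and 5.99 after 1 dose, and 7.24, 6.91, 6.88, 7.74 and 6.98 after 4 doses. Every 4-dose array of experiment 2 was above every control and Mstn-null array, and 4 of 5 1-dose arrays were above every control. Mstn-null arrays of experiment 2 ran only from 5.47 to 5.85, with a median of 5.68, within the range of the controls. The control and Mstn-null means of experiment 2 were also low, at the 32.9 and 31.2 percentile, against 64.6 after 4 doses. How far the array resolves differences at low levels was not analysed here, so no fold change is given for this gene. The log2 change was 0.44 ± 0.16 after 1 dose and 1.10 ± 0.16 after 4 doses, the second being 0.36 in experiment 1 and 1.55 in experiment 2.

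Macrophage markers moved beside Serpinb1a. Of 20 macrophage and myeloid markers, 10 rose and 0 fell after 4 doses, against 3.14% of all genes called, among them Laptm5 (0.67), Cd68 (0.68) and C1qb (0.68). In Mstn-null muscle, where Serpinb1a was at -0.02 and 41.8% of all genes passed, 8 rose and 0 fell. After 1 dose 0 passed in limma, with 10 at unadjusted p under 0.05, all higher. The count at 4 doses was 6 without control 3 of experiment 2, and 8 with centred arrays. At 1 dose it was 3 without control 3 of experiment 1 and 2 without 1-dose array 4 of experiment 2. The mean log2 value of the list in experiment 2 was 6.30 to 6.58 in controls, 6.55 to 7.13 after 1 dose, 6.99 to 7.20 after 4 doses and 6.59 to 7.23 in Mstn-null muscle. In experiment 1 the 4-dose range of 4.86 to 5.03 lay within the control range of 4.51 to 5.05. In Mstn-null arrays of experiment 2 marker levels reached 7.23 while Serpinb1a stayed within the control range. The part of these cells in the rise of Serpinb1a was not tested. Over the 35 arrays, with group means removed, Serpinb1a and the list correlated at r = 0.44. Over the 8 marker lists this r ran from -0.53 for lymphocytes and -0.41 for neutrophils to 0.51 for fibro-adipogenic progenitors.

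Markers of fibro-adipogenic progenitors, the connective tissue cells of muscle, also moved. Of 11, 3 rose after 4 doses, against 3.14% of all genes called, namely Thy1 (0.43), Col3a1 (0.74) and Cd34 (0.38), and 0 fell. Thy1 and Col3a1 passed with each array left out, and Cd34 did not with many of them. The mean log2 value of the list in experiment 2 was 9.14 to 9.61 in controls, 9.24 to 9.82 after 1 dose, 9.80 to 10.08 after 4 doses and 9.31 to 9.88 in Mstn-null muscle. In experiment 1 it was 7.36 to 7.88 in controls and 7.46 to 7.83 after 4 doses. Without control 3 or 4-dose array 3 of experiment 1 the count of 3 became 5. The part of these cells was not tested.

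**Figure D2:**
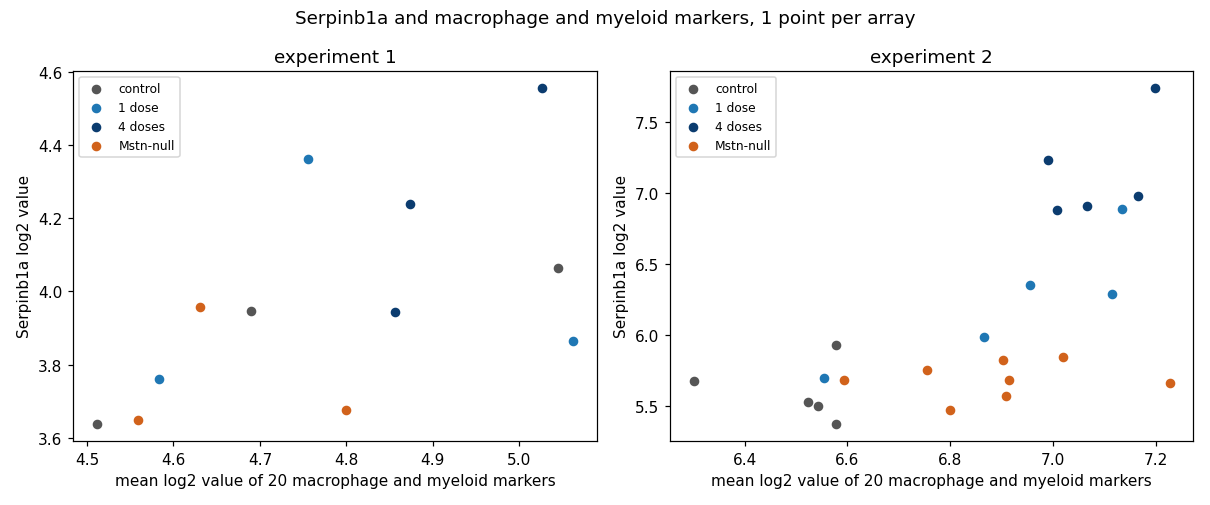
Serpinb1a log2 value (vertical axis) against the mean log2 value of 20 macrophage and myeloid markers (horizontal axis) in each experiment; each point is 1 array, coloured by class. In experiment 2 the 4-dose arrays lie at 6.88 or more for Serpinb1a, and Mstn-null arrays stay at 5.85 or less over marker levels from 6.59 to 7.23.

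Neutrophil markers, whose proteases Serpinb1a inhibits, did not pass after either dose: 0 of 11 passed in limma after 1 dose and after 4 doses, and 0 at unadjusted p under 0.05. In Mstn-null muscle 6 of the 11 rose and 0 fell, all at changes of 0.27 or less. Of 19 other clade B serpins and target proteases, 0 passed after 1 dose (4 at unadjusted p under 0.05) and 0 after 4 doses (1 at unadjusted p under 0.05). The close paralogues Serpinb1b and Serpinb1c differed from control by 0.06 ± 0.09 (SE, adjusted p = 0.827) and 0.01 ± 0.06 (SE, adjusted p = 0.951) after 4 doses. Sequence shared between the probes of these similar genes was not analysed here.

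**Figure D3:**
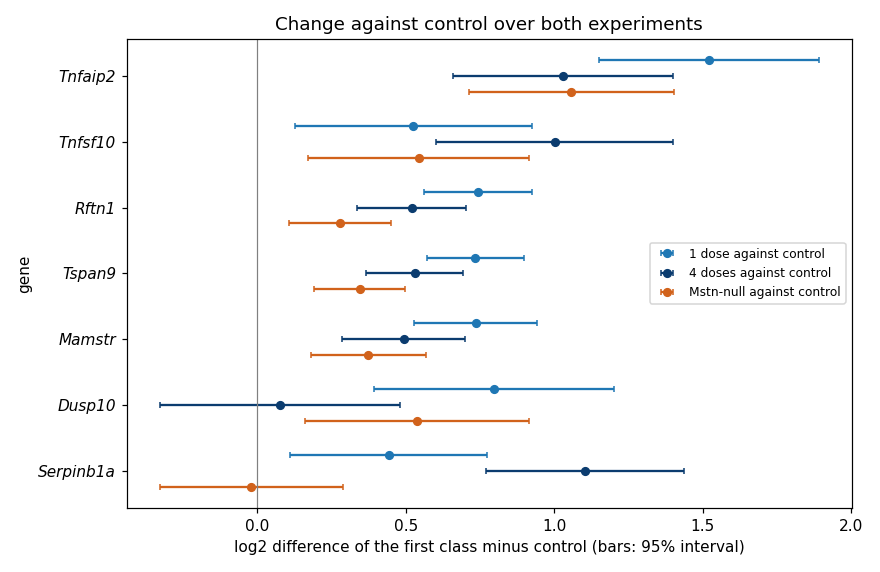
Log2 difference from control (horizontal axis) of each gene (vertical axis) after 1 dose, after 4 doses and in Mstn-null muscle, with 95% intervals from the fit of all arrays. Tnfaip2 stands at 1.52, 1.03 and 1.06, whereas Serpinb1a stands at 0.44, 1.10 and -0.02.

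Of the 7 genes 6 were higher in Mstn-null than in control muscle. This comparison did not choose them. It shares the control arrays with those that did, which favours higher values here too. Tnfaip2 rose most, by a log2 change of 1.06 ± 0.17 (SE, adjusted p = 2.59e-05), or 2.08-fold, with only 3 of 19938 genes higher. Tnfsf10 rose by 0.54 ± 0.18 (SE, adjusted p = 0.0184), Dusp10 by 0.54 ± 0.19 (SE, adjusted p = 0.0204) and Mamstr by 0.37 ± 0.10 (SE, adjusted p = 0.00278). Tspan9 rose by 0.34 ± 0.07 (SE, adjusted p = 0.000701) and Rftn1 by 0.28 ± 0.08 (SE, adjusted p = 0.00908). Serpinb1a differed by -0.02 ± 0.15 (SE, adjusted p = 0.923), with a 95% interval from -0.33 to 0.29.

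So many genes differed in Mstn-null muscle that this count needs its background. In limma 41.8% of all genes passed, and 25.4% were higher. Of the 7 genes 6 were, a count that the shared control arrays favour. The median change was 0.37 over the 7 and 0.09 over all genes. With each array centred on its median, the 5062 higher and 3275 lower genes became 1905 and 4189, and 3 of the 7 stayed called, namely Tnfaip2, Mamstr and Tspan9. The others then had adjusted p = 0.0714 for Dusp10, 0.109 for Rftn1 and 0.0728 for Tnfsf10. Over all alternatives adjusted p ran from 0.00249 to 0.761 for Dusp10, from 0.000851 to 0.571 for Rftn1 and from 0.00332 to 0.102 for Tnfsf10. In experiment 1 alone, with 3 arrays a class and 2.39% of all genes called, 0 of the 7 passed. The call of Tnfsf10 was lost also with quantile normalization and in experiment 2 alone, so it passed in neither experiment by itself. That of Dusp10 was lost also with array weights, and without control 4 (adjusted p = 0.0538) or control 5 (adjusted p = 0.0647) of experiment 2.

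Markers of several cell types also differed in Mstn-null muscle, where 41.8% of all genes passed and 25.4% were higher. These shares apply to each Mstn-null marker count below. Of 15 endothelial markers 9 fell and 0 rose, led by Egfl7 (-0.68, adjusted p = 3.12e-05) and Fabp4 (-1.51, adjusted p = 7.15e-05), which became 10 with centred arrays and 6 with quantile normalization. Their mean log2 value in experiment 2 was 7.39 to 8.00 in Mstn-null muscle against 7.99 to 8.11 in controls, and in experiment 1 every Mstn-null array lay below the lowest control, at 6.08. After 1 dose, where 1.11% of all genes passed, 1 endothelial marker fell, Robo4 (-0.29, adjusted p = 0.0377). That call was lost without controls 1 or 3 or 1-dose arrays 1 or 3 of experiment 1. It was lost also without controls 2 to 5 or 1-dose arrays 1 to 4 of experiment 2. After 4 doses, where 3.14% of all genes passed, 1 fell, Flt1 (-0.40, adjusted p = 0.0223). The call of Flt1 was lost without controls 4 or 5 or 4-dose arrays 2 or 3 of experiment 2.

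Of the 13 muscle fibre markers 1 rose and 4 fell in Mstn-null muscle, led by myoglobin, Mb (-1.66, adjusted p = 3.01e-06), and Myh2, the myosin of an oxidative fast fibre type (-1.30, adjusted p = 0.000246). With the other scalings 1 or 2 rose and 4 to 6 fell. After 4 doses, where 3.14% of all genes passed, Mylpf rose (0.28, adjusted p = 0.00536) and Mb fell (-0.94, adjusted p = 0.0217). The call of Mb was lost without 4-dose array 3 of either experiment. The 8 macrophage markers higher in Mstn-null muscle were led by Laptm5 (0.66, adjusted p = 0.000115) and became 3 with centred arrays, 2 with quantile normalization and 4 without control 3 of experiment 2. The 6 neutrophil markers, led by S100a9 (0.27, adjusted p = 0.00423), became 1 and 0 with these scalings. They became 3 without control 3 of experiment 1, or control 1 or 5 or Mstn-null array 7 of experiment 2.

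Of 12 lymphocyte markers 3 rose, near the share of all genes, and 0 fell (5 called without control 2 of experiment 1). Lymphocyte markers lay low too, at a median percentile of 24.5 in the controls of experiment 2. Of 10 satellite cell markers 2 rose and 2 fell (2 called without control 4 of experiment 2). Of 11 smooth muscle and pericyte markers 1 rose and 3 fell. Of the 11 progenitor markers 1 rose and 1 fell, and 1 was called without control 1 or 3 of experiment 1 or control 4 or Mstn-null array 3, 6 or 8 of experiment 2. The part of these cell types in the Mstn-null changes of the 7 genes was not tested.

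The arrays show how far the Mstn-null rise was a full shift. In both experiments together, 0 of the 7 genes had every Mstn-null array above every control, as 1.40% of all genes did. Tnfaip2 and Tspan9 were clear of the controls in experiment 2 only, and Mamstr and Tnfsf10 in experiment 1 only. After 1 dose 4 genes were clear in both experiments (0.406% of all genes), and after 4 doses 5 were, Tnfsf10 in addition (0.873%), counts that the choice of the genes used.

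Pathway lists in Mstn-null muscle depended on the scaling. Of all genes 41.8% passed and 25.4% were higher, and a list with counts near these shares is not set apart by them. Of the TNF and NF-kB response genes 14 rose and 2 fell, led by Tnfaip8l2 (0.51) and Birc2 (-0.63), which became 3 and 3 with centred arrays and 4 and 3 with quantile normalization. Of the TNF superfamily genes 17 rose and 1 fell, led by Ngfr (0.38) and Tnfrsf13c (0.42), which became 6 and 2 or 5 and 2. Of the MEF2 and myocardin families 5 rose and 2 fell, with Mrtfb at 0.79 and Vgll3 at 0.49, which became 4 and 3 or 9 and 1. Of the other dual specificity phosphatases 2 rose and 8 fell, with Dusp18 at -1.10 and Dusp22 at -0.59, which became 0 and 10 or 4 and 6. Lipid raft and caveolae genes, with 1 higher and 6 lower, became 0 and 8 or 1 and 4, and Pacsin3 (-0.61) and Cavin2 (-0.995) fell while Rftn1 rose.

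The remaining lists had members in both directions, given with the centred and then the quantile counts. The same shares over all genes apply. Of the exocyst and Ral genes 2 rose and 6 fell (0 and 7, 2 and 3), with Rala at -0.81 and Exoc6 at -0.73. Of the 29 tetraspanins 7 rose and 6 fell (2 and 6, 7 and 3), near the shares over all genes. Cd63 was at -0.58 and Tspan6 at -0.73. Of the death receptor genes 3 rose and 5 fell (0 and 5, 3 and 5), with Mcl1 at -0.66 and Diablo at -0.59. Of the p38 and JNK genes 2 rose and 5 fell (1 and 8, 3 and 3), with Gadd45b at -0.74 and Gadd45a at -0.87. Of the clade B serpins and target proteases 7 rose and 1 fell (1 and 1, 1 and 1), with Mmp9 at 0.37 and Serpinb9 at -0.43.

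The comparison of 4 doses with 1 dose asked whether the response differed between them. The timing of the doses is not given, so their number cannot be told apart from the length of treatment. Of the 7 genes 5 stood lower after 4 doses and 2 higher, where 46.7% of all genes were higher, and 0 passed adjusted p under 0.05 in limma, where 0.321% of all genes passed. All 7 had an unadjusted p under 0.05. The share of all genes at that level was not counted, so this is not read as a dose effect. Both classes took part in the choice of the genes, although the difference between them did not.

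Dusp10 had the largest difference, at -0.72 ± 0.20 (SE, adjusted p = 0.129, 95% interval -1.12 to -0.32). Serpinb1a was next with the opposite sign, at 0.66 ± 0.16 (SE, adjusted p = 0.0650, interval 0.33 to 0.99), and Tnfsf10 was at 0.48 ± 0.20 (SE, adjusted p = 0.484, interval 0.08 to 0.88). Tnfaip2 was at -0.49 ± 0.18 (SE, adjusted p = 0.377, interval -0.86 to -0.12). The 3 genes Rftn1, Tspan9 and Mamstr had smaller differences of -0.22, -0.20 and -0.24, with adjusted p of 0.454, 0.436 and 0.501.

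These calls moved with the fit. With array weights 6 of the 7 passed, 5 lower and Serpinb1a higher, where 5.23% of all genes passed. Adjusted p over all alternatives ran from 0.0109 to 0.772 for Serpinb1a and from 0.00274 to 0.848 for Dusp10. Dusp10 passed in experiment 1 alone (-1.17, adjusted p = 0.0437). Serpinb1a passed in experiment 2 alone (0.91, adjusted p = 0.0123), and without 4-dose array 1 (adjusted p = 0.0380) or 3 (0.0109) of experiment 1 or 1-dose array 3 (0.0202) of experiment 2. In experiment 1 alone Tnfsf10 was at -0.03.

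Treated muscle was also set against Mstn-null muscle. The treated arrays also took part in choosing the genes, which favours higher values here, so the counts and p-values of these comparisons describe the 7 genes and are not read against the shares over all genes. After 1 dose 4 of the 7 genes were higher than in Mstn-null muscle, where 16.8% of all genes passed in limma and 10.9% were higher. Rftn1 was higher by 0.46 ± 0.08 (SE, adjusted p = 0.000305), Tspan9 by 0.39 ± 0.07 (SE, adjusted p = 0.000554) and Mamstr by 0.36 ± 0.10 (SE, adjusted p = 0.00786). Every 1-dose array of Rftn1 and of Tspan9 lay above every Mstn-null array of its experiment, as for 0.461% of all genes. Serpinb1a was higher by 0.46 ± 0.15 (SE, adjusted p = 0.0341).

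Tnfaip2 after 1 dose stood 0.46 ± 0.17 above Mstn-null muscle (SE, adjusted p = 0.0560, interval 0.12 to 0.81). Without 1 array its adjusted p fell below 0.05 for control 1 of experiment 1, and for 4-dose array 1, Mstn-null arrays 2 and 4 and 1-dose array 5 of experiment 2. Over all alternatives it ran from 0.0226 to 0.313. Dusp10 was at 0.26 ± 0.19 (SE, adjusted p = 0.319, interval -0.12 to 0.63) and Tnfsf10 at -0.02 ± 0.18 (SE, adjusted p = 0.951, interval -0.39 to 0.36). The call of Serpinb1a was lost without 1-dose array 1 of experiment 1, or without Mstn-null array 6 or 7 or 1-dose array 1, 2 or 3 of experiment 2. It was lost also in experiment 1 alone, with array weights, with the array interquartile range as a covariate and with the replicate number as a block, with adjusted p between 0.0159 and 0.664 over all alternatives. That of Mamstr was lost in experiment 2 alone (0.18), with quantile normalization, with the array interquartile range as a covariate and with the replicate number as a block. Those of Rftn1 and Tspan9 were lost in experiment 1 alone.

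After 4 doses 2 of the 7 were higher than in Mstn-null muscle, where 20.2% of all genes passed in limma and 11.4% were higher. Serpinb1a was higher by 1.12 ± 0.15 (SE, adjusted p = 9.62e-06), a call lost in experiment 1 alone and in no other alternative that tested it. Rftn1 was higher by 0.24 ± 0.08 (SE, adjusted p = 0.0394). That call was lost without 4-dose array 2 or Mstn-null array 1 of experiment 1, or without 4-dose array 1, 2, 4 or 5 or Mstn-null array 5, 7 or 8 of experiment 2. It was lost also with quantile normalization, the interquartile range as a covariate, array weights, the replicate block and experiment 1 alone, 14 of 46 alternatives in all.

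The other 5 genes did not pass between 4 doses and Mstn-null muscle. Tnfaip2 was at -0.03 ± 0.17 (SE, adjusted p = 0.910, interval -0.37 to 0.32) and Mamstr at 0.12 ± 0.10 (SE, adjusted p = 0.356, interval -0.07 to 0.31). Tspan9 was at 0.19 (adjusted p = 0.0726), Tnfsf10 at 0.46 (adjusted p = 0.0714) and Dusp10 at -0.46 (adjusted p = 0.0720). Without 4-dose array 3 of experiment 1, Tspan9 and Tnfsf10 also passed and the count was 4. Tnfsf10 also passed without 4-dose or Mstn-null array 1 of experiment 1, and Tspan9 without Mstn-null array 3 of experiment 1 or 1 of experiment 2. Dusp10 passed, lower after 4 doses, without 4-dose array 1 or 2 of experiment 2.

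**Figure D4:**
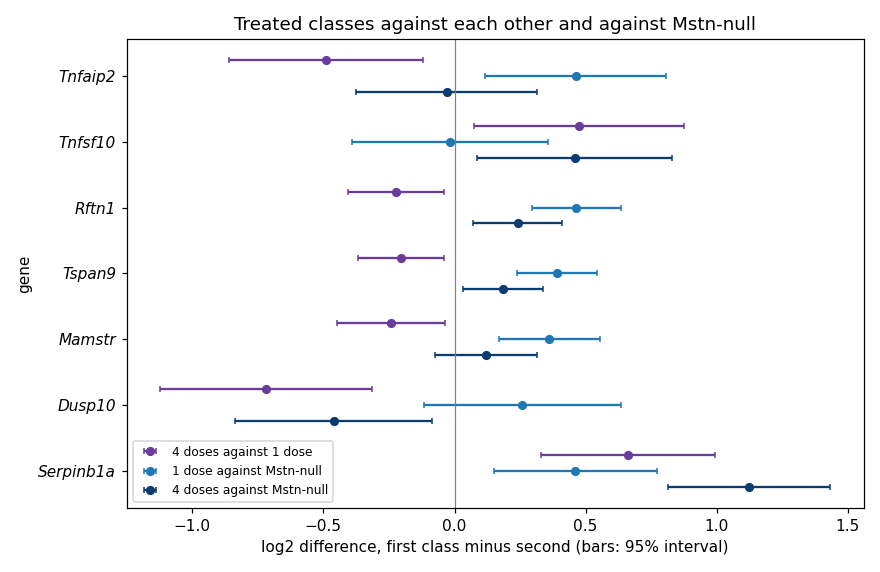
Log2 difference (horizontal axis) of each gene (vertical axis) for 4 doses minus 1 dose, 1 dose minus Mstn-null and 4 doses minus Mstn-null, with 95% intervals from the fit of all arrays. Dusp10 lies at -0.72 and Serpinb1a at 0.66 for 4 doses minus 1 dose, and Rftn1 and Tspan9 lie to the right of 0 against Mstn-null.

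The experiments were compared by the difference of each change, experiment 2 minus experiment 1. For 1 dose all 7 genes were above control in both experiments, which the choice of the genes favoured. In limma 0 of the 7 differences passed, with 0 at unadjusted p under 0.05. As 0% of all genes were called, this does not show that the changes were equal. The differences ran from -0.37 for Mamstr, whose change was 0.97 in experiment 1 and 0.60 in experiment 2, to 0.69 for Tnfaip2, whose change was 1.09 and 1.78. Their 95% intervals were -0.77 to 0.02 and -0.04 to 1.43.

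For 4 doses the experiments stood further apart. The differences ran from 0.10 for Mamstr upward, and 0 passed in limma, where 0.00502% of all genes passed. Serpinb1a differed by 1.18 ± 0.27 (SE, adjusted p = 0.147), Dusp10 by 0.86 ± 0.39 (SE, adjusted p = 0.620) and Tnfaip2 by 0.77 ± 0.36 (SE, adjusted p = 0.641). These 3 had an unadjusted p under 0.05. How many of all genes reached that level was not counted, so no difference between the experiments is read from it. With array weights Serpinb1a (1.37, adjusted p = 0.00303) and Tnfaip2 (0.94, adjusted p = 0.0429) passed. Their adjusted p over all alternatives ran from 0.00303 to 0.344 for Serpinb1a and from 0.0429 to 0.916 for Tnfaip2.

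For the Mstn-null change 0 of the 7 differences passed in limma, with 0 at unadjusted p under 0.05, where 1.68% of all genes passed. They ran from -0.32 for Tnfsf10 to 0.69 for Tnfaip2 (adjusted p = 0.237). Serpinb1a changed sign between experiments, from -0.12 to 0.08, and the other 6 were above control in both.

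**Figure D5:**
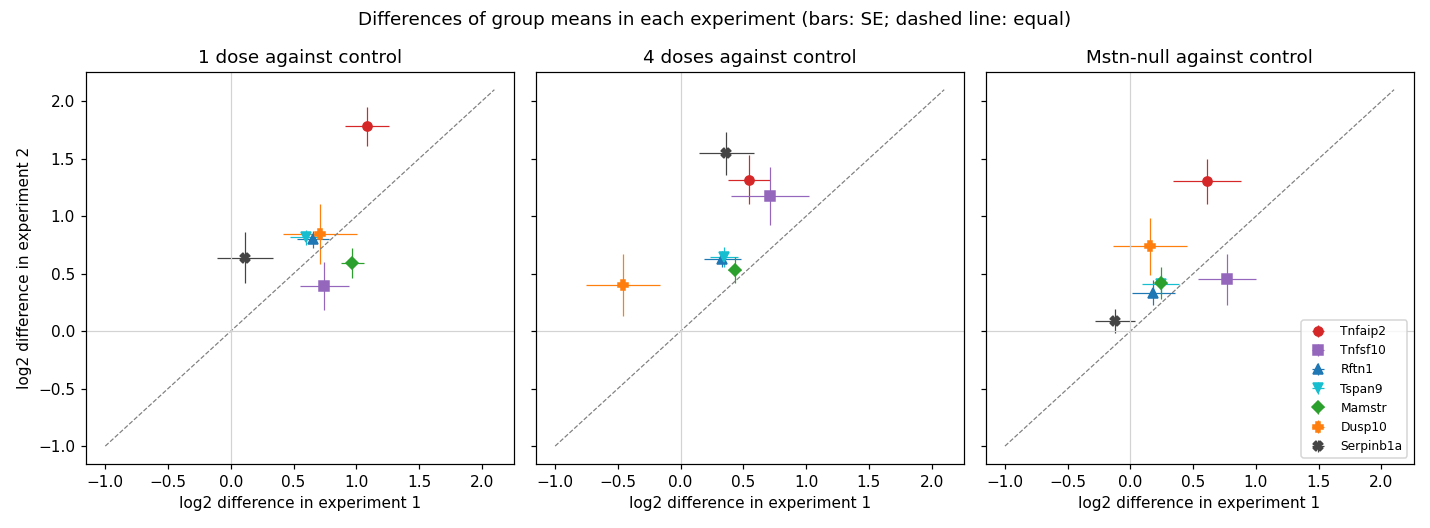
Difference of group means from control on the log2 scale in experiment 1 (horizontal axis) and experiment 2 (vertical axis) for 1 dose, 4 doses and Mstn-null; each symbol is 1 gene with SE bars, and the dashed line marks equal changes. At 4 doses Serpinb1a lies at 0.36 and 1.55 and Dusp10 at -0.46 and 0.40, away from the line.

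Genes with a like pattern were found by correlation over the 35 arrays after the mean of each experiment was removed, which keeps the differences between classes. All points share the same arrays, so r describes likeness only. For Tnfaip2 the 5 highest were Afap1l1 (r = 0.85), which encodes an actin-associated protein, the ubiquitin ligase gene Trim35 (0.83), Spata2 (0.82), an adaptor in TNF receptor signalling, Ccdc69 (0.80) and the small heat shock protein gene Hspb8 (0.78). With group means removed as well they lay between 0.53 and 0.56.

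Rftn1 and Tspan9 were each other's nearest gene of those ranked, at r = 0.91, or 0.63 with group means removed. Trim35 was second for both, at 0.86 and 0.85. Mamstr was nearest to Rftn1 (0.76) and Trim35 (0.75), which fell to 0.35 for both with group means removed. Dusp10 was nearest to the signalling ligand gene Wnt5a (0.77) and the kinase gene Dyrk2 (0.74). Wnt5a shared its dose order, at 0.33 after 1 dose and -0.04 after 4.

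Serpinb1a was nearest to Vsig4 (0.89), a complement receptor gene of macrophages, and Top2a (0.87), a gene of dividing cells. Vsig4 was 0.58 above control after 1 dose, 1.39 after 4 doses and 0.05 in Mstn-null muscle. Tnfsf10 was nearest to Mpp1 (0.73) and Nmt2 (0.72), or 0.63 and 0.74 with group means removed. After 1 dose, after 4 doses and in Mstn-null muscle Mpp1 changed by 0.18, 0.42 and 0.11. Nmt2 changed by 0.06, 0.25 and -0.03. All of these were smaller than the changes of Tnfsf10. The size of a change does not set r, so this does not show where the likeness lay. Among the 7 themselves r ran from 0.055 between Dusp10 and Serpinb1a to 0.91 between Rftn1 and Tspan9.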

How the data were processed

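Values came from 35 arrays. The authors deposited log2 expression values made with RMA; the submitters' processing notes list RMA, limma 3.4.4 and R 2.11.1. Joint or separate normalization of the experiments, and the build behind the probes, are not given in the sources used here. Of 35556 rows, 21789 had exactly 1 gene symbol in the platform annotation, 1621 several and 12146 none. The first gave 19938 genes, taking the row of highest mean where a gene had several, with no filter on dim genes.

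Comparisons were fitted on all arrays together for class plus experiment (limma 3.58.1 under R 4.3.3, moderated and two-sided). Benjamini-Hochberg adjustment covered every gene, and 0.05 was the threshold. A fit of 8 group means tested experiment differences. Groups followed the labels, which call samples biological replicates from separate mice. The number of arrays limits the precision. The fits were tested on simulated data. Within groups, arrays correlated between 0.954 and 0.996 across genes.

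The 7 genes and the 10 pathway and 8 marker lists were chosen with earlier results of these data known. Beside the 7, the text names the most correlated genes (5 for Tnfaip2, 2 for the others), up to 2 called genes of smallest p per list and comparison, and paralogues. Dusp8, Dusp3 and the macrophage and progenitor markers fell outside this rule and were named after their values were seen. The alternatives for marker counts were added after seeing the data. Alternatives were other scalings, a level filter, other row rules, array weights, each experiment alone, replicate blocks and leaving out each array.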

Additional observations from a re-analysis of the deposited data

Results flagged for a closer look

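Of 28 sets of 4 to 10 arrays checked (each of the 7 genes in each group of experiment 2), 1 held an array far from its group by Dixon's criterion, which chance flags in about 1 of 20 sets. Tnfsf10 was 8.28 in 4-dose array 1 of experiment 2, against 7.01 to 7.38 in the other 4 arrays of that group.

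Mstn itself differed between the experiments in Mstn-null muscle. Its change against control was lower in experiment 2 than in experiment 1 by a log2 difference of -1.58 (adjusted p = 0.0366, limma), at -1.21 in experiment 1 and -2.78 in experiment 2.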

How the results depend on the processing

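With each array centred on its median, the count of genes called in Mstn-null against control fell from 6 to 3. With the array interquartile range as a covariate, counts were 2 for 1 dose against Mstn-null, 1 for 4 doses against Mstn-null and 1 for 4 doses against 1 dose. Array weights called 6 for 4 doses against 1 dose and 2 for the experiment difference of the 4-dose change. Keeping genes above the median level left out Serpinb1a, and 1 was called for 4 doses against Mstn-null. Experiment 1 alone called 0 in Mstn-null against control, 0 for 4 doses against Mstn-null, 1 for 1 dose against Mstn-null and 1 between the doses. Experiment 2 alone called 1 between the doses and 4 when 4 doses were set against Mstn-null.

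Same-numbered arrays of an experiment did not deviate together steadily (correlations between -0.60 and 0.42), so the number was not taken as a pairing. With so few arrays a group this check cannot exclude one. With the replicate number as a block, 2 genes were called for 1 dose against Mstn-null and 1 for 4 doses against 1 dose, 6 stayed the count in Mstn-null against control, and its 5062 higher and 3275 lower genes became 2622 and 2360.

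Leaving out 1 array gave 5 to 6 calls in Mstn-null against control, 3 to 5 for 1 dose and 1 to 4 for 4 doses against Mstn-null, 0 to 1 for 4 doses against 1 dose and 0 for each experiment difference. All 7 genes stayed above control after 1 dose, and 6 to 7 after 4 doses.

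Signs of some single genes turned. Tnfaip2 for 4 doses against Mstn-null was 0.015 when centred, 0.016 in experiment 2 alone, and -0.15 to 0.042 with 1 array left out. Tnfsf10 for 1 dose against Mstn-null was 0.020 when centred, 0.0030 with array weights, and -0.12 to 0.073 with 1 array left out. In experiment 1 alone Tnfsf10 was -0.034 for 4 doses against 1 dose and -0.059 against Mstn-null. Serpinb1a in Mstn-null against control was 0.30 with the covariate, 0.067 with array weights, 0.085 in experiment 2 alone, 0.031 with the block, and -0.081 to 0.047 with 1 array left out. Dusp10 for 4 doses against control was -0.077 with array weights, -0.46 in experiment 1 alone, and -0.031 to 0.19 with 1 array left out. Its experiment difference of the 1-dose change was -0.098 to 0.35 with 1 array left out. The cause of these shifts was not tested. Counts of list genes were not run with all rows tested. Signal over background was not analysed here.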
